A study of Mus musculus with 4 samples.

Results

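Of the 10 genes described here, 5 are grouped as joint surface genes (Prg4, Cilp, Cilp2, Clu and Erg). The other 5 are genes of hyaluronan synthesis, binding and depolymerization (Has1, Has2, Has3, Cd44 and Cemip). They are given by name, with no threshold on their values. They and the lists read beside them were chosen with earlier results of these data known. All 10 were found among the 50686 gene identifiers counted in the hip libraries and the 54838 counted in the knee libraries. The study compared mouse articular cartilage with and without postnatal deletion of Cbfb, which encodes core binding factor β (Cbfβ), the partner of the RUNX transcription factors. There were 4 RNA libraries with 1 per group, so every ratio below compares 1 library with 1 library. Within a joint, no replicate error, test or p-value can be given, and no fit across joints was run.

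All 4 groups carried the floxed Cbfb f/f alleles. The hip control library came from Cbfb f/f mice without Cre and is labelled as untreated (the methods describe TMX or corn oil for such mice), and its counterpart came from Cbfb f/f;Col2α1-CreERT mice injected with tamoxifen (TMX), which activates the Cre recombinase in cells that use the Col2a1 promoter. Both knee libraries came from Cbfb f/f;Aggrecan-CreERT mice, in which Cre follows the aggrecan gene. The knee control was injected with oil and its counterpart with TMX. The hip mice are given as 6 weeks old in one place and as 2 months in another, and the knee mice as 12 weeks. TMX was given for 5 days at 75 mg/kg per day, from 2 weeks of age for the hip, and from 6 or 8 weeks for the knee, where the sources differ. Whether a library pooled animals is not given in the sources used here. The study describes the hip tissue as cartilage alone and the knee tissue as holding bone too. The joint, this tissue make-up, the Cre line, the age of the mice, the control used and the counting software all change together between the pairs and cannot be told apart, so values of the hip and knee pairs are set side by side without a test.

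Articular cartilage is layered. The cells of its superficial zone, together with the lining cells of the synovium, secrete lubricin, the product of Prg4, which coats the gliding surface and keeps friction low. Hyaluronan is a long, unsulfated sugar chain that HAS enzymes spin out through the plasma membrane. It gives joint fluid its viscosity, anchors aggrecan in the cartilage matrix and is held at the cell surface by CD44.

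Cbfb, the targeted gene, showed no clear loss in the libraries labelled Cbfb-deficient. Its count was 2548 in the hip control and 2946 in the hip library labelled Cbfb-deficient, and 3796 and 4572 in the knee libraries in the same order. The log2 ratios, labelled Cbfb-deficient over control, were 0.37 (95% counting interval 0.29 to 0.45) in the hip and -0.08 (-0.14 to -0.01) in the knee. The sign turned in the knee with library size scaling (0.11) and in both joints with the trends over exon length and GC content removed (-0.18 in the hip, 0.04 in the knee), and scaling to the chondrocyte list put Cbfb at 1.07 in the hip and 1.64 in the knee. Whole-gene counts cannot tell if the floxed exon was removed, and the labels are therefore used as given. For protein, the paper reports lower Cbfβ after TMX in hip cartilage of both Cre lines by western blot. It also reports less Cbfβ staining in hip joints of the Col2a1 line and in knee joints of the aggrecan line. Counts on genes ranged from 34264456 to 38473120 per library, at which 3 counts, taken as the floor, equal 0.0780 to 0.0876 counts per 1000000 counts on genes (CPM). The hip libraries held few cartilage transcripts. Genes of a 16-gene chondrocyte list made up 0.0259% of counts in the hip control and 0.0106% in the hip library labelled Cbfb-deficient, while 26 skeletal muscle genes made up 23.0% in both. In the knee libraries the chondrocyte list held 0.638% and 0.314% of counts, and the muscle list 1.71% and 3.62%. A list of 15 osteoblast and osteocyte genes held 0.0956% and 0.0282% of hip counts, against 1.44% and 0.813% of knee counts. Ratios in the hip pair also moved with transcript length. The median log2 ratio was -0.23 over the 980 genes with the shortest exons and 0.75 over the 980 with the longest, against -0.34 and 0.19 over groups of 1042 genes in the knee pair.

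A log2 ratio here is that of counts normalized by edgeR's TMM method within a pair, with 0.5 added to each count. A gene is called higher or lower when the pair holds at least 10 counts, the ratio is at least 2-fold and its 95% Clopper-Pearson interval excludes 0. These intervals cover counting error only. In bulk RNA, fewer cells of a type and less RNA per cell cannot be told apart.

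All 5 joint surface genes of the knee pair stood higher beyond counting error in the library labelled Cbfb-deficient, beside 31.6% of all genes tested. So did 26 of 26 skeletal muscle genes and 19 of 19 adipocyte genes. Of the 5 joint surface genes, Prg4 and Cilp passed the 2-fold rule. In the hip pair Prg4 was again higher by the 2-fold rule, while Cilp, Cilp2 and Clu were lower, Cilp2 by more than 4-fold. Of the 5 hyaluronan genes, Has3 was called higher in the knee pair and Cemip was called lower in the hip pair. Over all 10 genes, 1 was called higher and 2 lower in the hip pair, where 19.6% of 19856 genes tested were called higher and 16.9% lower (36.5% in either direction). In the knee pair 3 were called higher and 0 lower, where 8.96% of 21131 genes tested were called higher and 6.92% lower (15.9% in either direction). Of these 3, Has3 had 9 counts in its control. With at least 10 counts asked of each library, 2 were called in the knee pair. The median log2 ratio of the 10 genes was -0.36 in the hip pair, beside -0.02 over all genes tested, and 0.81 in the knee pair, beside 0.01.

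**Figure D1:**
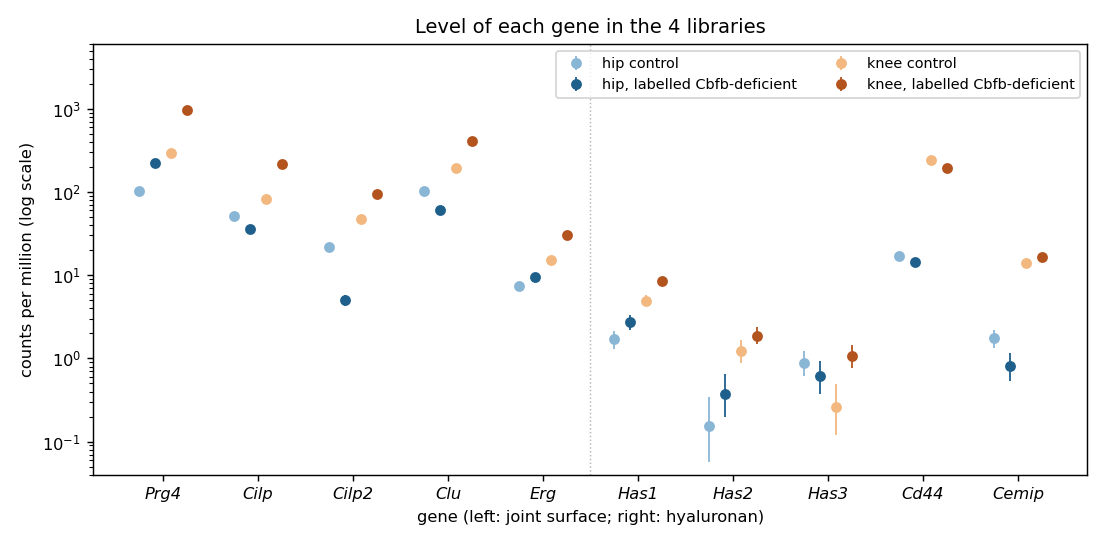
Level of each of the 10 genes, in CPM on a log axis, in the 4 libraries. Each point is 1 library and each bar its exact 95% Poisson counting interval. Prg4 ran from 103 CPM in the hip control to 958 CPM in the knee library labelled Cbfb-deficient, while Has2 and Has3 lay near or below 1 CPM in most libraries.

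Prg4 (ENSMUSG00000006014, GRCm39 chromosome 1, 150325163 to 150342009, minus strand) encodes lubricin. It had 3965 counts (103 CPM) in the hip control and 7644 (221 CPM) in the hip library labelled Cbfb-deficient. The knee control held 10157 counts (296 CPM) and its counterpart 36604 (958 CPM). The library labelled Cbfb-deficient was therefore the higher one in each joint. The log2 ratio was 1.11 (1.05 to 1.17) for the hip, a 2.16-fold difference, and 18.7% of genes tested had a higher ratio. It was 1.51 (1.47 to 1.54) in the knee pair, a 2.84-fold difference, with 5.47% of genes higher. Per length of exon, Prg4 stood at 67.7 RPKM (CPM per kilobase of exon) in the knee control and 219 RPKM in its counterpart, where it ranked 153 among 25830 genes. Prg4 shares 350 exon bases, 7.99% of its exons, with Tpr, a nuclear pore gene on the opposite strand. How reads in that stretch were assigned is not given in the sources used here. Tpr itself had 1160 and 5456 counts in the hip pair (log2 ratio 2.40) and 3683 and 5345 in the knee pair (0.19).

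Because lubricin is made by the synovial lining as well as by the cartilage surface, 8 genes of the lining were read beside it. In the knee pair 8 of 8 were higher beyond counting error and 4 were called, with a median log2 ratio of 1.07, where 31.6% of all genes tested were higher beyond counting error, 30.0% lower and 8.96% called higher. Vsig4, a complement receptor of lining macrophages, had 73 counts in the knee control and 429 in its counterpart (2.20). Htra4, a secreted protease, had 929 and 3543 (1.59). In the hip pair 5 of 8 were higher beyond counting error and 1 lower, with 3 called higher and a median of 0.43, where 36.3% of all genes were higher, 34.9% lower and 19.6% called higher. Clic5, which muscle also expresses, had 3173 and 7620 counts there (1.43). Htra4 with 51 and 104 counts (1.18) and Rab37 with 22 and 51 (1.36) were also called higher in the hip pair. The lining macrophage markers Timd4 and Vsig4 had 69 and 32 (-0.93) and 51 and 38 (-0.26, within counting error). None of the 8 was at 0 in any library, and their summed level was 128 and 274 CPM in the hip pair and 141 and 347 CPM in the knee pair. Without Clic5, an alternative chosen after seeing the data, the other 7 summed to 45.7 and 53.9 CPM in the hip (median 0.17) and to 118 and 281 CPM in the knee (0.92). A list of 10 genes of the sublining fibroblasts gave medians of -0.84 (hip) and 0.14 (knee). The part of synovial cells in the Prg4 ratios was not tested.

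Cilp and Cilp2 encode cartilage intermediate layer proteins, secreted matrix proteins that share a domain plan. For them, joint surface is the name of the group and not a zone found in these data. Cilp (ENSMUSG00000042254, chromosome 9, 65172200 to 65187888, plus strand) had 1995 counts (51.9 CPM) in the hip control and 1233 (35.7 CPM) in the hip library labelled Cbfb-deficient. In the knee it had 2831 (82.6 CPM) and 8368 (219 CPM). The libraries labelled Cbfb-deficient thus held the lowest and the highest CPM of the 4. The log2 ratio was -0.53 (-0.64 to -0.43) in the hip pair and 1.22 (1.16 to 1.28) in the knee pair, where the gene was called higher. Cilp2 (ENSMUSG00000044006, chromosome 8, 70333018 to 70340337, minus strand) had 836 counts (21.7 CPM) in the hip control and 174 (5.03 CPM) in its counterpart. In the knee Cilp2 had 1612 (47.0 CPM) and 3642 (95.3 CPM). The hip ratio of -2.10 (-2.35 to -1.86) was a 4.28-fold lower level in the library labelled Cbfb-deficient, and 8.11% of genes tested had a lower ratio. It stayed called at -1.58 with the trends over exon length and GC content removed and at -1.40 scaled to the chondrocyte list. The knee ratio was 0.83 (0.75 to 0.92), short of 2-fold. Per length of exon, Cilp exceeded Cilp2 in all 4 libraries, by 1.99-fold and 5.90-fold in the hip control and its counterpart, and by 1.46-fold and 1.91-fold in the knee.

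Since both paralogs lay on the same side of their control within each pair, the stretches just before their starts are shown. They are 250 bases each from the RefSeq promoter table of GRCm38.p6, which has entries for 6 of the 10 genes, written in the direction of transcription and ending at the base before the start. Capitals mark the core letters that RUNX proteins bind, TGTGGT, or ACCACA where they lie on the other strand, and no other motif was searched. The Cilp stretch is chr9:65264930-65265179 on the plus strand and the Cilp2 stretch is chr8:69887393-69887642 on the minus strand.
Cilp: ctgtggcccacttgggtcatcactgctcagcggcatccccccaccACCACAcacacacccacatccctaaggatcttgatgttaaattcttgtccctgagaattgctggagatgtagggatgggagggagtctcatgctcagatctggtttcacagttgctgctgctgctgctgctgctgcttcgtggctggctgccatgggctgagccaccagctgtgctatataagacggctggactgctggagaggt
Cilp2: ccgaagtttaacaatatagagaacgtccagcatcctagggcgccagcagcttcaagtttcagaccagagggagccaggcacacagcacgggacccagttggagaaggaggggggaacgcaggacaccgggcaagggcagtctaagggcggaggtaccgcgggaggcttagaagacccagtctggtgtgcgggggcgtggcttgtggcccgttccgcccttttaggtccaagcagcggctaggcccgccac
The Cilp stretch holds the letters once, in the ACCACA form, beginning at position -205 counted from the start. The Cilp2 stretch and those of the 4 other genes with an entry (Erg, Has1, Cd44 and Cemip) do not hold them. Of 32851 promoters in the table, 4614 (14.05%) hold the letters in the same 250 bases. A match of letters is a description and not a binding site.

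Clu (ENSMUSG00000022037, chromosome 14, 66190200 to 66218999, plus strand) encodes clusterin, a secreted chaperone that is abundant at the cartilage surface and made by many other cells. It had 3966 counts (103 CPM) in the hip control and 2121 (61.3 CPM) in its counterpart, and 6668 (195 CPM) and 15561 (407 CPM) in the knee. Like Cilp, Clu stood below its control level in the hip pair and above it in the knee pair. The log2 ratios were -0.74 (-0.82 to -0.66) and 0.88 (0.84 to 0.92). Per length, Prg4 exceeded Clu in every library, by 1.29-fold in the hip control and 4.64-fold in its counterpart.

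Erg (ENSMUSG00000040732, chromosome 16, 95160028 to 95387452, minus strand) encodes an ETS transcription factor of the developing joint surface that endothelial cells also use. It had 287 counts (7.46 CPM) and 329 (9.51 CPM) in the hip pair, and 524 (15.3 CPM) and 1154 (30.2 CPM) in the knee pair. Erg was on the higher side in both joints, with log2 ratios of 0.36 (0.13 to 0.59) and 0.79 (0.64 to 0.95), and it passed the 2-fold rule in neither. Of 12 endothelial genes, 4 were higher and 4 lower beyond counting error in the hip pair (median 0.08), and 9 were higher and 3 lower in the knee pair (median 0.31). Over all genes tested, the shares were 36.3% higher and 34.9% lower (hip) and 31.6% higher and 30.0% lower (knee). The summed level of those 12 genes was 423 and 461 CPM in the hip and 417 and 603 CPM in the knee, and none was at 0. Their part in the Erg ratios was not tested.

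**Figure D2:**
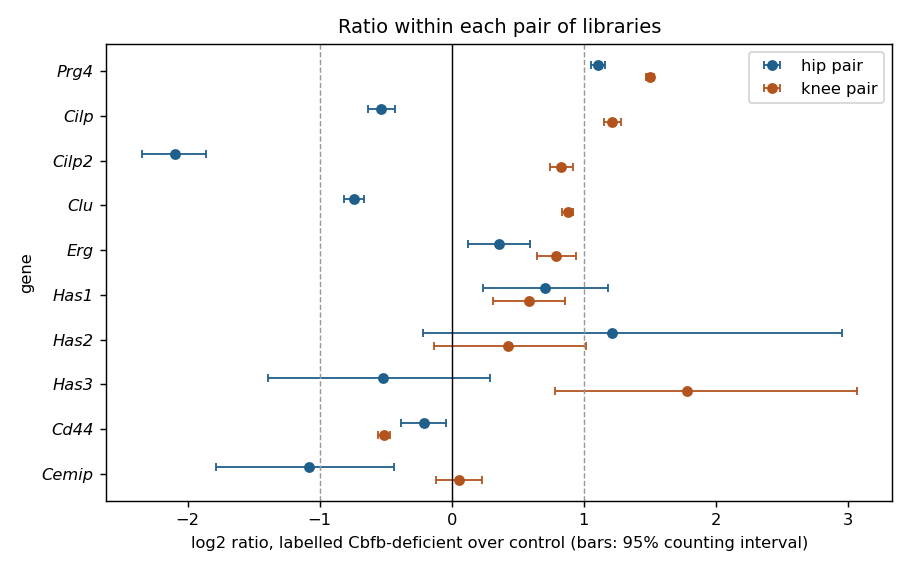
Log2 ratio of each gene, library labelled Cbfb-deficient over control, in the hip pair and the knee pair, with 95% counting intervals as bars and dashed lines at the 2-fold limits. Cilp, Cilp2 and Clu lie to the left of 0 in the hip pair and to the right in the knee pair, Prg4 lies beyond 1 in both, and Cd44 lies below 0 in both.

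Cilp, Cilp2 and Clu were the 3 genes of the 10 whose ratios were beyond counting error and opposite in the hip and knee, all lower in the hip and higher in the knee. Over 17594 genes tested in both pairs, 20.6% were opposite in this sense and 10.6% were lower in the hip and higher in the knee.

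In the knee most of the broad chondrocyte list lay on the other side from the joint surface genes. Of 16 chondrocyte genes, 12 were called lower and 0 higher in the knee pair, beside 6.92% and 8.96% of all genes, with a median log2 ratio of -1.71, beside 0.88 for the 5 joint surface genes. Col2a1, the collagen of the cartilage matrix, had 87367 counts in the knee control and 33204 in its counterpart, and 354 and 228 in the hip. Matn3, a matrilin, had 3384 and 78 counts in the knee (-5.77). The other side held 3 of the 16 beyond counting error, Chad with 13390 and 27245 counts (0.68), Acan with 858 and 1387 (0.35) and Comp with 22150 and 29134 (0.05), which are matrix proteins of cartilage. Per length, Prg4 stood at 0.248 of the Col2a1 level in the knee control and at 2.36 of it in its counterpart. The hip libraries held Prg4 at 23.9 and 71.6 times the Col2a1 level. In the hip pair 6 chondrocyte genes were called lower and 1 higher of 14 tested, beside 16.9% and 19.6% of all genes (median -0.70), beside -0.53 for the joint surface genes. Chad and Comp were among those called lower there, Chad with 2566 and 639 counts (-1.84) and Comp with 4715 and 1286 (-1.71).

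A further 20 genes linked to the superficial zone, the joint lining, their progenitors or cartilage more widely were read as a list. Not all of them are particular to the joint surface. In the knee pair 6 were called higher and 2 lower, beside 8.96% and 6.92% of all genes, with a median log2 ratio of 0.80. Those higher included Abi3bp, a matrix protein, with 508 and 2563 counts (1.99), Chrdl2, a BMP antagonist, with 72 and 345 (1.91), and Osr2, a transcription factor of joint formation, with 36 and 137 (1.57). Ucma, a secreted protein of growth plate cartilage, had 1223 and 474 (-1.71). In the hip pair 2 were called higher and 4 lower, beside 19.6% and 16.9% of all genes, with a median of -0.50. Foxo3 and Foxo1, transcription factors that are active in many tissues including muscle, had 877 and 2897 counts (1.89) and 709 and 2273 (1.84). Ecrg4, a secreted protein, had 896 and 164 (-2.28), and Sfrp4, a Wnt antagonist, had 360 and 106 (-1.60).

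**Figure D3:**
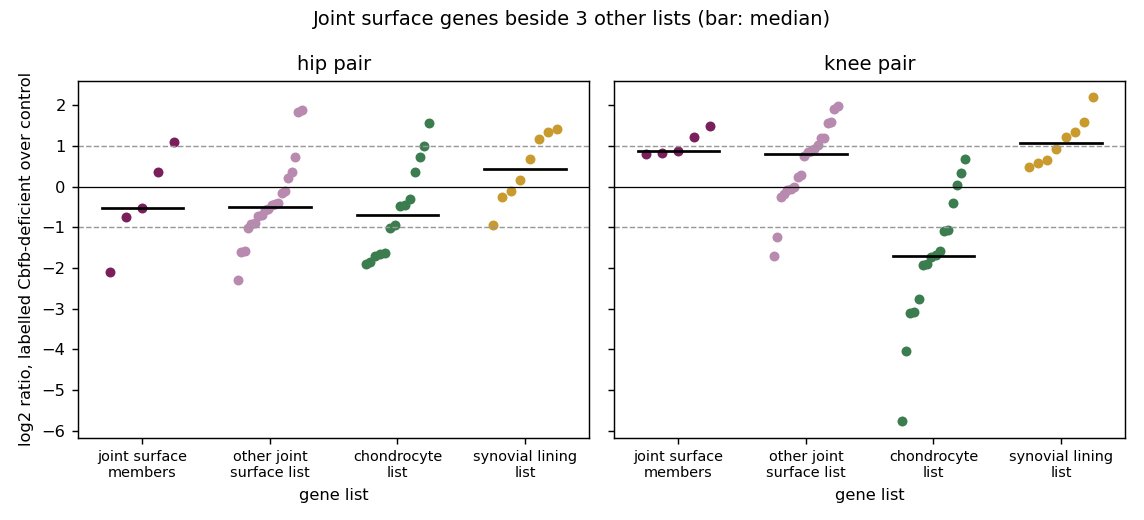
Log2 ratios, library labelled Cbfb-deficient over control, of single genes in 4 lists for the hip pair and the knee pair, over genes with at least 10 counts in the pair. Each point is a gene, the bar is the list's median and dashed lines mark 2-fold. In the knee the joint surface genes all lie above 0 with a median of 0.88, and the chondrocyte list has a median of -1.71.

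Of the hyaluronan synthases, Has2 and Has3 were scarce in every library and Has1 was less so. Has1 (ENSMUSG00000003665, chromosome 17, 18063585 to 18075467, minus strand) had 65 and 95 counts (1.69 and 2.75 CPM) in the hip pair and 170 and 324 (4.96 and 8.48 CPM) in the knee pair. Its log2 ratios were 0.71 (0.24 to 1.19) and 0.58 (0.31 to 0.86), on the higher side in both joints and under 2-fold. Has2 (ENSMUSG00000022367, chromosome 15, 56528342 to 56557999, minus strand), the synthase usually named as the main one of chondrocytes, had 6 and 13 counts in the hip pair and 42 and 72 in the knee pair. Its ratios of 1.22 (-0.22 to 2.96) and 0.43 (-0.14 to 1.02) were within counting error. A difference in Has2 was thus not detectable at this depth, and the antisense gene Has2os, with 400 shared exon bases, had 19 and 2 reads in the hip pair against 10 and 17 in the knee pair. Has3 (ENSMUSG00000031910, chromosome 8, 107596874 to 107611198, plus strand) had 34 and 21 counts in the hip pair and 9 and 41 in the knee pair. The hip ratio of -0.52 (-1.39 to 0.29) was within counting error, and the knee ratio of 1.78 (0.78 to 3.07) was called higher, from a control of 9 counts. Has3 shares 352 exon bases with Chtf8 on the opposite strand, whose ratios were -0.49 in the hip and 0.14 in the knee.

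Per length of exon, Has1 was the most abundant synthase in all 4 libraries. It made up 68.8% of the summed RPKM of the 3 genes in the hip control, 78.1% in its counterpart, 79.3% in the knee control and 77.5% in its counterpart. Has2 made up 5.76%, 9.69%, 17.8% and 15.6% in the same order, and Has3 25.4%, 12.2%, 2.97% and 6.93%. Has3 exceeded Has2 in the hip control and Has2 exceeded Has3 in both knee libraries, while at 13 and 21 counts the hip library labelled Cbfb-deficient set no order beyond counting error.

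**Figure D4:**
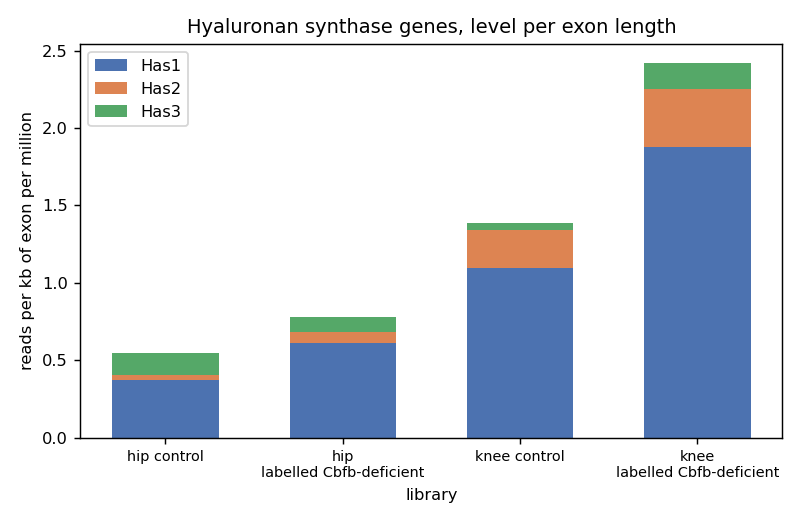
Level of the 3 hyaluronan synthase genes per exon length, in CPM per kilobase of exon, stacked by gene for each library and drawn from 0, without error bars. Has1 fills 68.8% to 79.3% of each bar.

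Cd44 (ENSMUSG00000005087, chromosome 2, 102641486 to 102732010, minus strand) encodes the main cell surface receptor for hyaluronan, which leukocytes carry as well as chondrocytes. It had 651 counts (16.9 CPM) in the hip control and 503 (14.5 CPM) in its counterpart, and 8260 (241 CPM) and 7356 (192 CPM) in the knee. Cd44 was the single gene of the 10 that was lower beyond counting error in both joints, with log2 ratios of -0.21 (-0.38 to -0.04) and -0.51 (-0.56 to -0.47), both under 2-fold. Of 14 leukocyte genes, 8 were lower and 3 higher beyond counting error in the hip pair (median -0.49), and 9 were lower and 3 higher in the knee pair (median -0.27). Of all genes tested, 34.9% were lower and 36.3% higher (hip), against 30.0% and 31.6% (knee). Their summed level was 149 and 116 CPM in the hip and 3679 and 3663 CPM in the knee, with none at 0, and their part in the Cd44 ratios was not tested.

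Cemip (ENSMUSG00000052353, chromosome 7, 83582065 to 83735724, minus strand) encodes a protein needed for hyaluronan depolymerization. It had 67 and 28 counts in the hip pair, and 481 and 635 in the knee pair. The hip ratio of -1.08 (-1.79 to -0.44) was called lower, a call that ended with scaling to the chondrocyte list (-0.38), and the knee ratio of 0.06 (-0.12 to 0.23) was within counting error.

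The genes around hyaluronan were read as 4 further lists. Of 9 genes that supply its sugar precursors, 9 were higher beyond counting error in the hip pair, where 36.3% of all genes were, and their median log2 ratio was 0.75. Gfpt1, which starts hexosamine synthesis, was the 1 called there, with 898 and 1790 counts (1.16), beside 19.6% of all genes called higher. Ugdh, which makes UDP-glucuronic acid, had 374 and 564 (0.75). Among the knee libraries 4 were higher and 3 lower beyond counting error, beside 31.6% and 30.0% of all genes, with Gnpnat1 among the 4. Ugdh had 2442 and 2420 counts there (-0.36). The supply genes thus stood on 1 side in the hip and on both sides in the knee. Gnpnat1 had 0 counts in the knee control and 12 in its counterpart, against 257 and 398 in the hip, so it passed the count limit in the knee through 1 library and is not read as a change.

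Of 11 breakdown genes, 6 reached 10 counts in the hip pair, and 1 was higher and 4 lower beyond counting error, beside 36.3% and 34.9% of all genes (median -0.49), none by 2-fold. For the knee 7 did, and 1 was higher and 4 lower, beside 31.6% and 30.0% (median -0.21). Hyal1, a lysosomal hyaluronidase, was the 1 called lower, beside 6.92% of all genes, with 183 and 105 counts (-1.14). Of 8 receptors other than Cd44, 3 were called higher in the hip pair beside 19.6% of all genes, and 3 were lower beyond counting error beside 34.9% (median -0.06), none of these by 2-fold. Those called were Stab2 and Lyve1, receptors of sinusoidal and lymphatic endothelium, with 301 and 1100 counts (2.03) and 450 and 953 (1.24), and Tlr4, an innate immune receptor, with 63 and 197 (1.80). For the knee 6 were higher and 1 lower beyond counting error, beside 31.6% and 30.0% of all genes, and 1 was called higher, beside 8.96%, which was Susd5 with 1376 and 3713 counts (1.09). Of 17 genes whose proteins bind hyaluronan in the matrix, 15 reached 10 counts in the hip pair, and 3 of them were called higher and 4 lower, beside 19.6% and 16.9% of all genes. Of those higher, Habp2 had 121 and 239 counts (1.14) and Vcan 136 and 256 (1.07). The 4 lower (Bcan, Ncan, Hapln2 and Itih3) had at most 27 counts in a library. In the knee 13 were tested, with 2 called in each direction, beside 8.96% of all genes called higher and 6.92% lower. Of those called higher, Itih3 had 0 counts in the knee control and 10 in its counterpart. It passed the count limit through 1 library and is not read as a change. Hapln1, the link protein that ties aggrecan to hyaluronan, had 5614 and 2398 counts there (-1.57), and Itih5, of the inter-α-trypsin inhibitor family, had 598 and 1809 (1.25).

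The genes whose level over the 4 libraries was most like that of a member were found among 13838 genes by the Euclidean distance of log2(CPM + 0.1), centered on each gene's mean. For Prg4 they were Fam13b (distance 0.24), Gucy1b1 (0.27) and Sele (0.27). For Cilp they were C3ar1, Scara3 and Lrrc32, at 0.16 to 0.18. Scara3 lies over the Clu gene body on the opposite strand with 0 shared exon bases, with 1110 and 750 counts for the hip libraries and 1798 and 5427 for those of the knee. For Erg they were Gm45250, Adgre5 and Niban1, and for Cd44 Lpcat1, Ptma and Entpd7. With 4 libraries, such a likeness is a description of 4 values per gene.

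**Figure D5:**
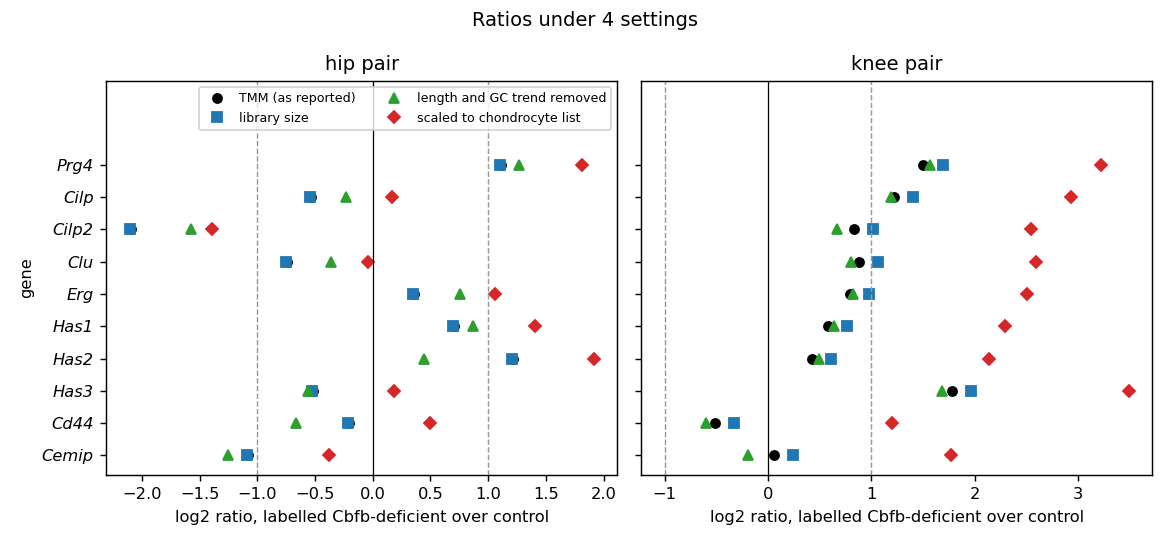
Log2 ratio of each gene under 4 settings in the hip pair and the knee pair, with dashed lines at the 2-fold limits. Prg4 lies above 1 under all 4 settings in both joints, and scaling to the chondrocyte list moves every gene to the right, Cd44 in the knee from -0.51 to 1.20.

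The ratios rest on how the libraries of a pair are set level. Relative to the chondrocyte list instead of to most genes, all 10 genes in the knee were higher by 2-fold or more, with the median of all genes tested at 1.73. In the hip that scaling put the median of all genes at 0.68 and turned Cilp to 0.17 and Cd44 to 0.49. With trends over exon length and GC content removed, hip ratios were -0.23 for Cilp, -0.36 for Clu and 0.76 for Erg. With a 1.5-fold rule 5 of the 10 genes were called in the hip and 6 in the knee, beside 51.8% and 30.2% of all genes tested. Setting the knee pair level by library size called Cilp2 (1.02) and Clu (1.06) higher as well. Prg4 was called higher in both joints under each setting tried.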

How the data were processed

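The 4 poly-A libraries were 1 per group by the labels, from articular cartilage of the hip and the knee. RNA extraction notes name osteoblasts, whereas tissue labels name cartilage. The authors deposited raw read counts for each Ensembl gene. The submitters' processing notes name STAR 2.0, FastQC 0.11.3 and mm10, and the paper GRCm39. Hip counts came from HTSeq, and its summary lines, 25.8% and 24.6% of reads listed, were left out. The knee counter and strand setting are not given in the sources used here. Identifiers were matched to GENCODE M39 (91.8% in the hip, 92.6% in the knee). Ratios used edgeR 4.0.16 (TMM) in R 4.3.3, and alternative size factors came from DESeq2 1.42.0. The paired DESeq2 analysis of the study could not be run within a joint, with 1 library per group, and was not run across joints. Other steps used Python 3.11.15, pandas 2.3.3, scipy 1.17.1 and matplotlib 3.10.9, after tests on simulated counts. RPKM was CPM per kilobase of merged GENCODE exons. The members and lists were chosen with earlier results of these data known. Named list genes were at most 4 per list and pair, the called genes of largest ratio whose higher library held 100 counts or more. Ugdh, Gnpnat1, Bcan, Ncan, Hapln2, Itih3 and the cell type genes were named after their values were seen. Alternatives were other scalings, added counts, count filters, a 1.5-fold rule and removal of trends over length and GC content. The genes most like Clu are not reported here.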

Additional observations from a re-analysis of the deposited data

Results flagged for a closer look

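Of the 10 genes, 3 had ratios of opposite sign in the hip and knee pairs, each beyond its counting error. The knee log2 ratio minus the hip log2 ratio was 1.75 for Cilp (1.22 against -0.53), 2.93 for Cilp2 (0.83 against -2.10) and 1.62 for Clu (0.88 against -0.74). With 1 library per group, the difference between joints was not tested, and over all 17594 genes tested in both pairs 20.6% were opposite in the same sense. The joint, its tissue make-up, the Cre line, the age of the mice, the control used and the counting software cannot be told apart. Groups of 1 library allow no search for a library far from its group.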

How the results depend on the processing

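Of 158 recomputed gene ratios, 120 moved by less than their counting error, 35 moved further and 3 that were beyond counting error changed sign. These 3 came with scaling to the chondrocyte list, which gave Cilp 0.17 in the hip and Cd44 0.49 in the hip and 1.20 in the knee, and it moved Has3 in the hip, which was within counting error, to 0.18. Under that scaling 5 genes were called in the hip, where Erg, Has1 and Has2 gained a call, Cemip lost its own (-0.38), Cilp2 was at -1.40 and Clu at -0.04. It called 10 in the knee, and 1 gene was opposite between the joints. With a 1.5-fold rule 5 were called in the hip and 6 in the knee, beside 51.8% and 30.2% of all genes. Library size scaling put the median of all knee genes at 0.20 and called 5 knee genes, as Cilp2 reached 1.02 and Clu 1.06, and 4 genes were opposite, as Cemip reached 0.24 in the knee. Removing the trends over length and GC content left in the hip Cilp at -0.23, Cilp2 at -1.58, Clu at -0.36, Has2 at 0.44, Erg at 0.76 and Cd44 at -0.66, and in the knee Cemip at -0.19. With at least 10 counts asked of each library, Has3 in the knee (9 in the control) and Has2 in the hip (6) were not tested. The cause of these shifts was not tested. Within a joint no paired analysis was possible, because the labels carry no replicate numbers and each joint held 1 library per condition. No library could therefore be left out. A fit over all 4 libraries with joint as a block would leave 1 residual degree of freedom and was not run, as the joints differ in Cre line, control and counting software.

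Depth limits Has2, Has3 and Cemip in the hip, at 6 to 67 counts. No interval here covers differences between animals.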

Other observations

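Tissues next to the cartilage were also read through their marker genes. Of 19 adipocyte genes, 19 were higher beyond counting error in the knee library labelled Cbfb-deficient (median log2 ratio 0.88), as were 26 of 26 skeletal muscle genes (1.03), beside 31.6% of all genes. In the hip pair 10 adipocyte genes were higher and 7 lower (median 0.24), beside 36.3% and 34.9% of all genes. Muscle genes there went both ways, 11 higher and 14 lower, with Ttn at 2.97 and Neb at 2.68, and Pvalb at -1.96. Erythroid genes held 0.639% and 0.295% of counts in the hip pair and 10.2% and 5.09% in the knee pair. Genes of osteoblasts and osteocytes had medians of -0.65 in the hip and -0.17 in the knee, and those of osteoclasts -0.53 and -0.83. Tendon genes had medians of -1.58 and -0.13, with Tnmd, a tendon membrane protein, at 349 and 64 counts in the hip (-2.28). The part of these tissues in the ratios of the joint surface genes was not tested.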
